A study of Mus musculus with 30 samples.

Results

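Iron storage and transport were followed through 9 genes in the hippocampus of mice fed methylmercury (MeHg). They are the ferritin chains Fth1 and Ftl1, transferrin (Trf), the transferrin receptor (Tfrc), the iron importer Slc11a2, the iron exporter ferroportin (Slc40a1), ceruloplasmin (Cp) and the iron regulatory proteins Aco1 and Ireb2. They were chosen by symbol, as the rows whose Ensembl identifier carries that symbol, and all 9 were found among the 21412 genes of the deposited table. The light chain Ftl1 had the lowest p of all members in the F test over the 6 groups: it averaged 735 ± 127 normalised read counts in mice on the high MeHg dose and 517 ± 89.3 in mice on control feed (mean ± SD, n = 5 each). Cp was higher with the high dose in the mice given selenium, and Tfrc was lower with the high dose than with the low dose. Fth1, Trf, Slc40a1 and Slc11a2 passed the test in none of the 12 comparisons. With each comparison fitted on the libraries of its own diet, or on all 30 where it crosses diets, no member passed a limma test adjusted over all genes, in any comparison or in the F test over the 6 groups, although Ftl1 passed in HD against LD when all 30 libraries were fitted together. The genes that passed were 0.13% of all genes for HD against Ctr, 0.0499% for HD against LD, 0.327% for Se_HD against HD, 0.21% for HD over both diets, 0.444% for the F test and 0% elsewhere.

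RNA was sequenced from the hippocampus of 30 male BALB/c mice, 5 in each of 6 groups. For 11 weeks the LD mice ate 0.28 mg and the HD mice 5 mg of MeHg per kg of feed, and the Ctr mice ate feed to which none was added. The other 3 groups, Se_Ctr, Se_LD and Se_HD, carry selenium as a treatment in their labels, and neither the selenium dose nor the MeHg doses in mg of these groups are given in the sources used here. All mice of the MeHg study were 2 to 3 weeks old on arrival, were housed singly and ate a purified AIN-93G diet, and the MeHg was added as a complex with cysteine, which the Ctr feed also held. Age and feed of the selenium groups are not stated separately. Each library held between 5768208 and 11510521 reads in genes, with group medians from 7119788 in Ctr to 10159514 in HD. Markers of hippocampal neurons were present in all libraries, with sums over 7 genes between 6619 and 12553 normalised counts. Markers of the choroid plexus, a tissue next to the hippocampus, ranged from 312 to 38317 summed over 10 genes. The 12 microglia markers summed to between 2754 and 3456 in every group but HD, in which they summed to between 3620 and 8585. Values per mouse are normalised read counts, that is reads divided by a size factor for the library, and mice are named by group and replicate number.

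Iron enters brain cells mostly bound to transferrin, which the transferrin receptor carries into endosomes, and the divalent metal transporter Slc11a2 moves it from there to the cytosol. Ferritin, a shell of heavy and light chains, stores what is not used, and ferroportin lets iron out, helped by the ferroxidase ceruloplasmin. When iron is scarce, the iron regulatory proteins bind hairpins called iron-responsive elements, which blocks translation of ferritin and ferroportin and keeps the receptor mRNA from decay. Much of this control therefore acts on translation, which read counts do not show. In the brain, oligodendrocytes and the choroid plexus make transferrin, and microglia and oligodendrocytes hold much of the ferritin.

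The elements are shown because they place the members on either side of this control. Each was found in the untranslated regions of the NCBIM37 annotation as 5 paired bases, the loop CAGTGN and an unpaired C before the upper stem. The search covered the transcribed strand only, and each window of 29 bases is printed 5′ to 3′ with the loop in capitals.
Fth1 (5′ UTR, chr19:10057222-10057250, + strand): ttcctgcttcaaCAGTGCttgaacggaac
Ftl1 (5′ UTR, chr7:52715149-52715177, - strand): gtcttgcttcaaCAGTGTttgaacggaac
Slc40a1 (5′ UTR, chr1:45982310-45982338, - strand): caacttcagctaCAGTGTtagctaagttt
Tfrc, site 1 of 4 (3′ UTR, chr16:32631305-32631333, + strand): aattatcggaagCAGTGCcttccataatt
Tfrc, site 2 (3′ UTR, chr16:32631684-32631712, + strand): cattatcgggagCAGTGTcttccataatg
Tfrc, site 3 (3′ UTR, chr16:32631749-32631777, + strand): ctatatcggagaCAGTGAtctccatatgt
Tfrc, site 4 (3′ UTR, chr16:32631796-32631824, + strand): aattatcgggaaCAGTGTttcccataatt
Such letters occurred in the 5′ UTR of 33 of 19945 genes (0.165%) and in the 3′ UTR of 125 of 20007 genes (0.625%). Among the members, Fth1, Ftl1 and Slc40a1 held 1 each in the 5′ UTR and Tfrc held 4 in the 3′ UTR. No window with these letters was found in Trf, Slc11a2, Cp, Aco1 or Ireb2, which says only that these letters are not there.

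The levels of the members spanned a wide range. Per kb of exon, Fth1 averaged 5723 normalised counts over the 30 libraries, Ftl1 395, Tfrc 210 and Ireb2 142. Slc11a2 followed with 61.5, Aco1 with 48.0, Slc40a1 with 37.7, Trf with 17.9 and Cp with 15.7 per kb. By these counts the heavy chain of ferritin had the highest level of the members. The levels of Ftl1 and Trf are uncertain. Of the stretches of 75 bases in Ftl1, 67.4% occur elsewhere in the genome, and 63.7% of Trf exonic bases are shared with a second gene. Exon length is that of all annotated exons together, 9566 bases for Cp. All 9 members had reads in all 30 libraries, from at least 21 reads in a library for Trf to at least 2265 for Fth1.

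**Figure D1:**
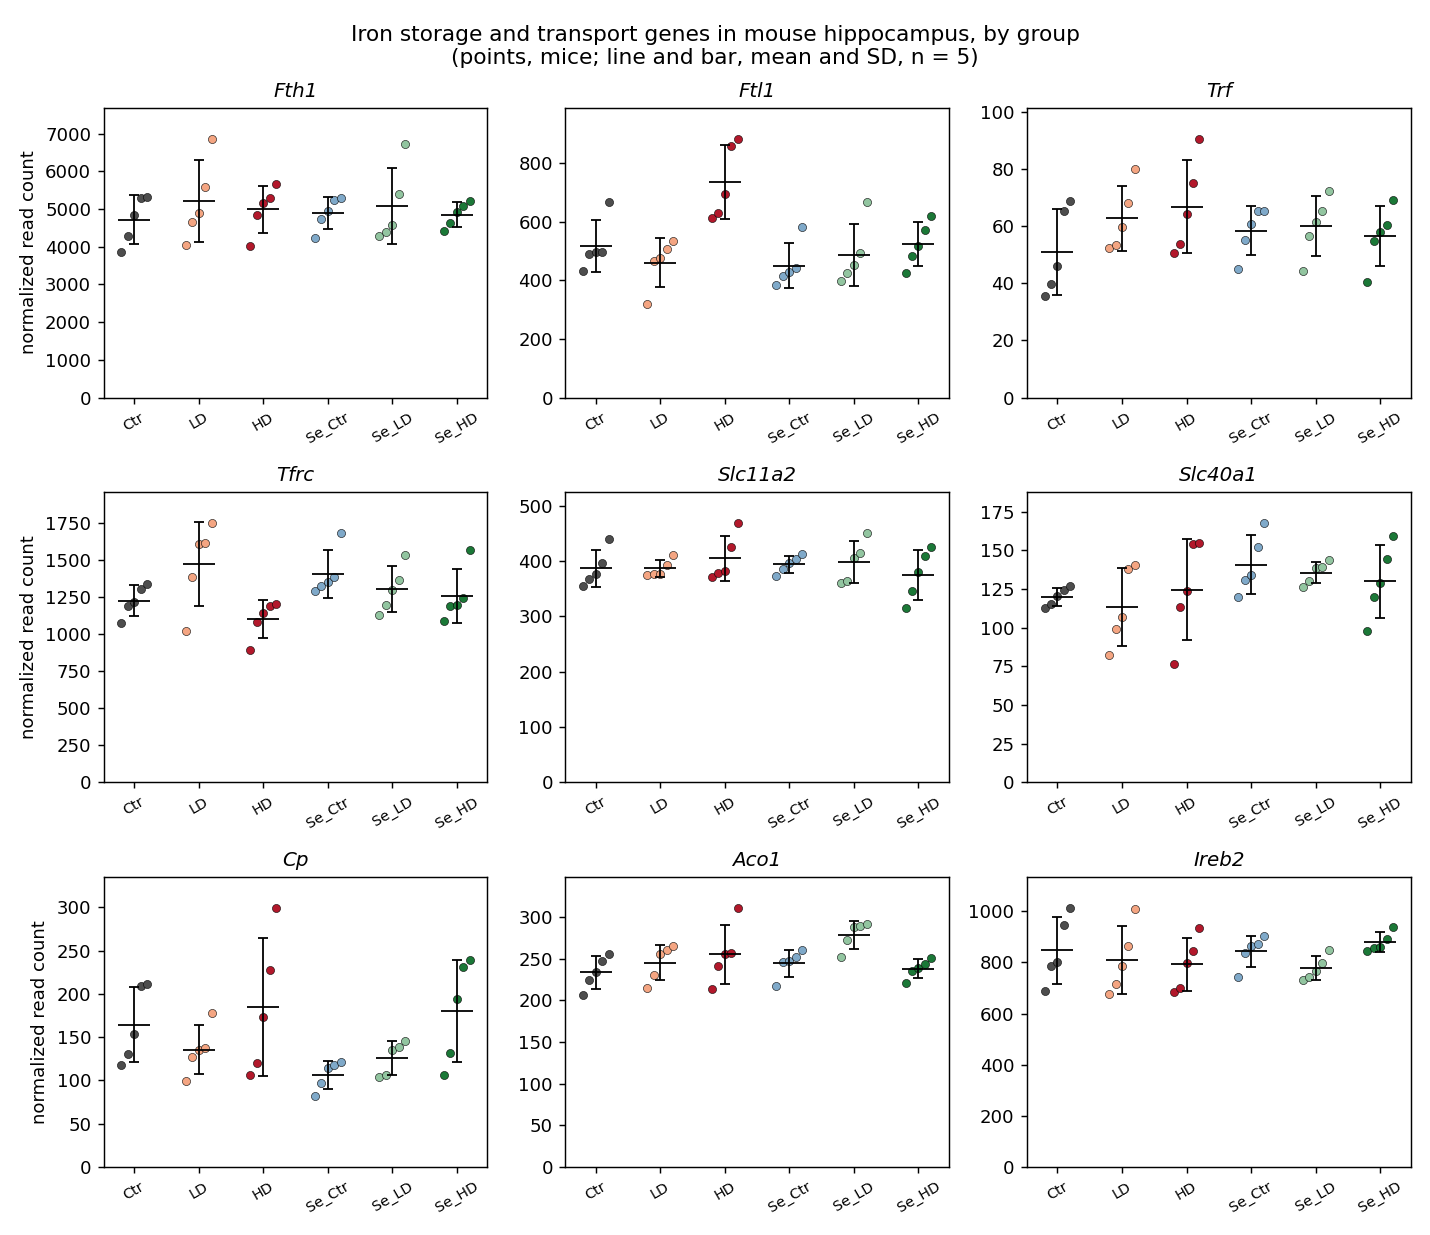
Normalised read count of each member in each of the 6 groups, with the vertical axes starting at 0. Points are mice, and lines and bars are the mean and SD of 5 mice. Ftl1 in HD lies between 612 and 883, above all 5 LD mice, while Fth1 has similar means in all groups, from 4718 to 5209.

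Fth1 (chr19:10057193-10059582, + strand) encodes the heavy chain, which oxidises iron as it enters the shell. Its level in Ctr mice ranged from 3854 to 5314 with a mean of 4718 ± 641. In HD mice it ranged from 4018 to 5650 with a mean of 4993 ± 619. The groups overlapped almost completely, and the log2 fold change of HD against Ctr was 0.08 ± 0.14 (SE; 95% interval -0.20 to 0.37). LD mice had the highest mean, 5209 ± 1080, through LD replicate 4 at 6865. In the selenium groups the means were 4893 ± 435 in Se_Ctr, 5075 ± 1013 in Se_LD and 4849 ± 328 in Se_HD. The highest and lowest group means differed by 1.10 times, and the F test over the 6 groups did not pass (limma adjusted p = 1.00).

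Ftl1 (chr7:52713314-52715254, - strand) encodes the light chain, which helps the iron core to form. The 5 Ctr mice had 497, 669, 497, 432 and 488 normalised counts (in order of replicate number). The 5 HD mice had 694, 883, 630, 612 and 857. Of the HD mice, 3 lay above all Ctr mice, and Ctr replicate 2 lay above the other 2. HD exceeded Ctr by 0.51 ± 0.14 on the log2 scale (SE; limma p = 0.00218, adjusted p = 0.194), and the exact two-sided permutation test of 5 against 5 gave p = 0.0238, where the smallest value possible is 0.00794. This was the single member called in HD against Ctr, where calling a gene takes an unadjusted p under 0.05 both in the F test across Ctr, LD and HD and in the comparison itself. Of all 20031 genes tested, 5.09% were called by the same rule. The estimate stayed between 0.44 and 0.60 when each mouse was left out in turn.

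The LD mice had 477, 465, 507, 534 and 319 counts of Ftl1, with a mean of 460 ± 83.7. Every HD mouse was above every LD mouse. The log2 difference was 0.68 ± 0.14 (limma p = 0.000131, adjusted p = 0.0844; exact permutation p = 0.00794), and the adjusted p was under 0.05 in 2 of 13 other settings, with all 30 libraries (0.014) and with DESeq2 (0.00354). In LD against Ctr the difference was -0.17 ± 0.14 (95% interval -0.47 to 0.13). No member was called in that comparison with limma on the 15 libraries, against 1.46% of all genes, nor did any pass by the contrast alone, against 3.01%. Tfrc alone was called there with all 30 libraries in the fit, with the library set as covariate, with edgeR and with DESeq2. Ftl1 and Tfrc were the 2 members called in HD against LD, against 4.49% of all genes.

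In the selenium groups the difference was smaller. Se_Ctr mice had 442, 386, 583, 429 and 414 counts and Se_HD mice 484, 425, 516, 620 and 571. The groups overlapped, and the log2 difference of 0.22 ± 0.13 did not pass the test (95% interval -0.05 to 0.49). Se_LD mice lay between 399 and 666. The test of whether the effect of HD differed between the diets did not pass for Ftl1 (-0.29 ± 0.21, selenium groups minus the others; 95% interval -0.71 to 0.13). Compared directly, Se_HD mice were lower than HD mice by 0.49 ± 0.15 (p = 0.00208, adjusted p = 0.213; exact permutation p = 0.0159), and 4 of 5 Se_HD mice lay below all HD mice. Ftl1 was the member called there, against 3.59% of all genes. The Se_HD against HD and HD against Ctr comparisons share the HD mice. Averaged over the 3 doses, the selenium groups were lower by 0.20 ± 0.08 (adjusted p = 0.739), where 2.3% of all genes and 1 member were called. HD averaged over both diets was higher than control by 0.36 ± 0.10 (adjusted p = 0.154), and Ftl1 and Cp were the 2 members called, against 4.21% of all genes. The F test over the 6 groups had an unadjusted p under 0.05 for Ftl1 (adjusted p = 0.0632), Tfrc (adjusted p = 0.546) and Cp (adjusted p = 0.555), and for 6.91% of all genes.

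In the order of group means of Ftl1 the step from Se_HD (523) to HD (735) was larger than the SD of either group, and none of the steps among the other 5 groups was. The ratio of Fth1 to Ftl1 counts in single libraries averaged 9.39 ± 2.08 in Ctr, 11.4 ± 1.34 in LD and 6.90 ± 1.13 in HD. The log2 ratio was lower in HD than in LD by an amount that passed the exact permutation test (-0.73, p = 0.00794), whereas that of HD against Ctr did not pass it (-0.42, exact permutation p = 0.0794). In Se_HD against Se_Ctr the difference was -0.23 (exact permutation p = 0.190).

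Reads of Ftl1 are partly shared with processed copies. Of the 894 windows of 75 bases in its transcript, 603 (67.4%) occur elsewhere in the genome, in 6 regions. How reads that map to several places were counted is not given in the sources used here, so the level of Ftl1 is uncertain. The annotated copies Gm10116, Gm12164 and Gm15590 are in the table with means of 3.96, 0.768 and 0.951 normalised counts over all libraries. These low counts do not show how shared reads were treated. Genes that overlap the regions had Ctr and HD means of 703 and 661 (Grik3), 45.7 and 72.8 (Myo7a) and 1746 and 1839 (Tulp4). For Fth1 4.17% of windows occur elsewhere, and for the other 7 members none do. Markers of microglia were higher in HD beside Ftl1: the 12 genes were all called in HD against Ctr, with a median log2 difference of 0.95, and none was called in Se_HD against Se_Ctr (median 0.07). In Se_HD against HD, where Ftl1 was also called, 11 of the 12 were lower (median -0.88), and for selenium over all doses 7 microglia markers (median -0.24) and 3 of 8 astrocyte markers were lower. For HD over both diets 11 microglia markers (median 0.50) and 3 astrocyte markers were higher. Of 8 astrocyte markers, 2 were higher in HD against Ctr, 3 higher in HD against LD and 3 lower in Se_HD against HD, and their sums ran from 56352 to 63706 in HD and from 48054 to 57926 in Ctr. HD replicates 2 and 5, with the highest marker sums of 8585 and 7660, also had the highest Ftl1. HD replicate 3, with the lowest sum of HD (3620), had 630 counts of Ftl1, above all Ctr mice but replicate 2. In whole tissue a change in the number of cells of a type and a change in RNA per cell cannot be told apart, and the part of microglia and astrocytes in the result was not tested.

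**Figure D2:**
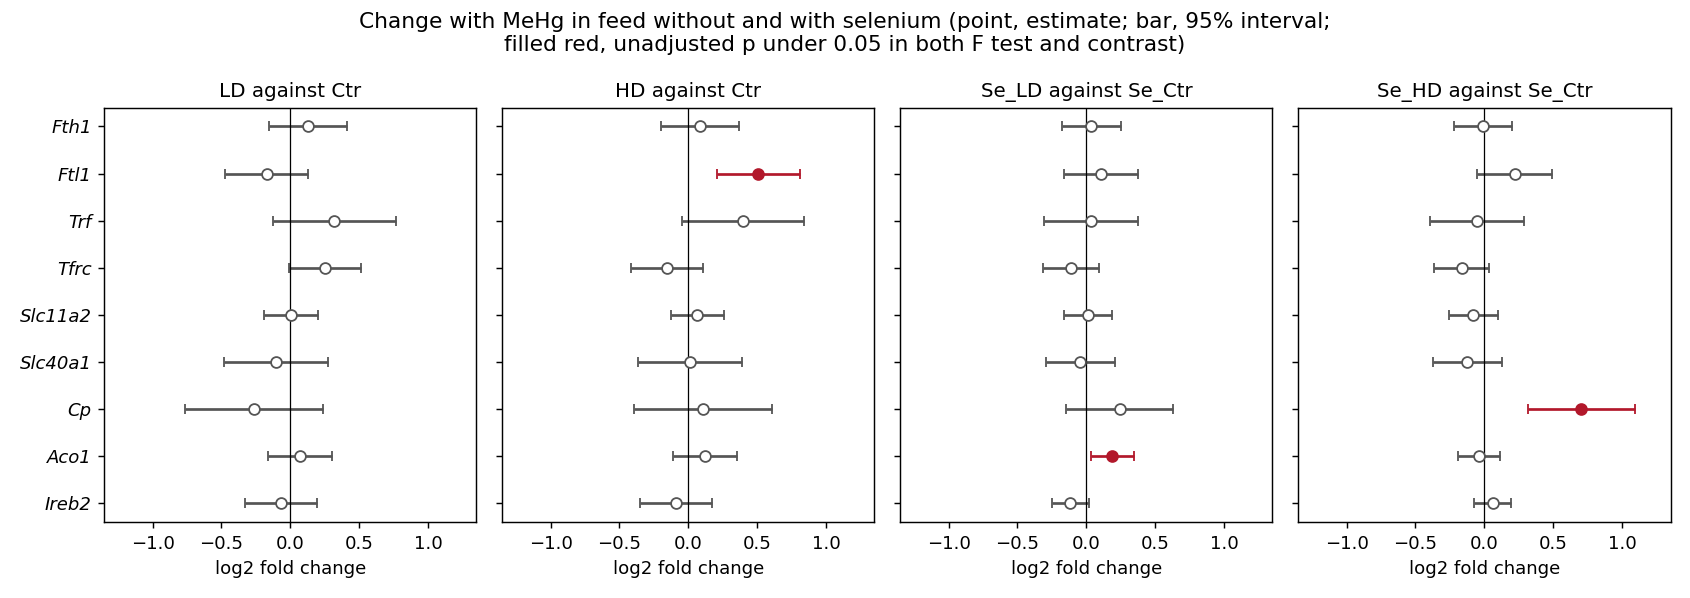
Log2 fold change of the 9 members with each MeHg dose, against Ctr (left pair) and against Se_Ctr (right pair). Points are limma estimates, bars 95% intervals, and filled red points are called. Ftl1 is called in HD against Ctr (0.51), Aco1 in Se_LD against Se_Ctr (0.19) and Cp in Se_HD against Se_Ctr (0.70).

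Trf (chr9:103106331-103132774, - strand) encodes the plasma and interstitial iron carrier. It had a mean of 51.1 ± 15.0 normalised counts in Ctr mice, 62.7 ± 11.4 in LD and 66.9 ± 16.4 in HD. The mice of these groups overlapped, from 35.7 to 90.6, and the log2 difference of HD against Ctr was 0.40 ± 0.21 (95% interval -0.05 to 0.84). With selenium the means were 58.3 ± 8.59, 60.0 ± 10.4 and 56.6 ± 10.4 from control to high dose, with a difference of -0.05 ± 0.16 between Se_HD and Se_Ctr. The level of Trf is uncertain, since 63.7% of its exonic bases are shared, on the same strand, with a second annotated gene of the same name (chr9:103092538-103132637), which is not in the table. How reads in the shared bases were counted is not given in the sources used here.

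Tfrc (chr16:32609006-32632880, + strand) brings transferrin-bound iron into the cell. LD mice had 1617, 1388, 1024, 1606 and 1750 counts and HD mice 1206, 895, 1141, 1191 and 1085. Apart from LD replicate 3, the LD mice were above all HD mice. HD was lower than LD by 0.40 ± 0.13 on the log2 scale (p = 0.0042, adjusted p = 0.353; exact permutation p = 0.0476), and without LD replicate 5 the call was lost. Of 10 oligodendrocyte markers, 2 were lower in the same comparison and none higher (median -0.25), with sums from 30140 to 48044 in HD and from 40576 to 53382 in LD. In that comparison 11 of 12 microglia markers (median 1.03) and 3 of 8 astrocyte markers were higher, and the part of these cell types in the result was not tested. The Ctr mean of 1226 ± 105 lay between those of HD and LD, the Ctr mice (1076 to 1343) overlapped both groups, and neither HD against Ctr (-0.16 ± 0.13; 95% interval -0.42 to 0.11) nor LD against Ctr (0.25 ± 0.13; 95% interval -0.01 to 0.51) passed. The LD difference of Tfrc was called in the 4 other fits named above, between 0.25 and 0.27, and without LD replicate 3 (0.37).

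With selenium, Tfrc had 1384, 1323, 1355, 1685 and 1290 counts in Se_Ctr mice and 1198, 1570, 1193, 1245 and 1088 in Se_HD mice. Of the Se_HD mice, 4 were below all Se_Ctr mice and replicate 2 was above 4 of them. The log2 difference of -0.17 ± 0.10 did not pass the test (95% interval -0.37 to 0.04), and without Se_HD replicate 2 it was -0.25 and was called. The mean of Tfrc was lower in the high-dose group than in the matching control in both diets, and the effects differed between diets by -0.01 ± 0.16 (95% interval -0.35 to 0.33). Averaged over both diets the difference was -0.16 ± 0.08 (95% interval -0.33 to 0.01) and was not called in the fit without covariates. With the library set as covariate, a further member beside Ftl1 and Cp, not named here, was called in this comparison.

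Slc11a2 (chr15:100218329-100255503, - strand), the importer of divalent metals, varied little. Its 6 group means lay between 375 and 405 counts, with a ratio of 1.08, and the SD within a group was between 3.89% and 12.1% of the mean. HD against Ctr gave a log2 difference of 0.07 ± 0.09 (95% interval -0.13 to 0.26) and Se_HD against Se_Ctr one of -0.08 ± 0.08. Of its exonic bases 6.33% overlap a gene on the opposite strand.

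Slc40a1 (chr1:45964915-45982439, - strand), the one known iron exporter of mammalian cells, had a mean of 120 ± 5.91 in Ctr mice, 113 ± 25.3 in LD and 125 ± 32.5 in HD. The HD mice were the most spread, from 76.7 in replicate 1 to 155 in replicate 5, and the Ctr mice the least, from 113 to 127. The log2 difference of HD against Ctr was 0.01 ± 0.18. In the selenium groups the means were 141 ± 19.0 in Se_Ctr, 136 ± 7.05 in Se_LD and 130 ± 23.5 in Se_HD, all above the means of the other 3 groups. Se_Ctr against Ctr gave 0.22 ± 0.16 in the fit of all 6 groups (95% interval -0.10 to 0.54), whereas the exact permutation test of these 10 mice alone gave p = 0.0397. Averaged over doses the selenium groups were higher by 0.20 ± 0.09 (95% interval 0.01 to 0.38; adjusted p = 0.752), which passed by the contrast alone, as did 6.62% of all genes. The F test over the 6 groups did not pass for Slc40a1 (adjusted p = 0.982), so it was not called.

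Cp (chr3:19857054-19909145, + strand), the ferroxidase that oxidises iron leaving through ferroportin, had the largest relative spread of any member in a single group. Its SD was 43.1% of the mean in HD, while in Ctr, LD, Se_Ctr and Se_LD another member was more spread. In Se_Ctr mice Cp had 81.7, 114, 97.3, 117 and 122 counts and in Se_HD mice 194, 132, 107, 239 and 231. Of the Se_HD mice, 4 lay above all Se_Ctr mice. Se_HD exceeded Se_Ctr by 0.70 ± 0.19 on the log2 scale (p = 0.00112, adjusted p = 1.00; exact permutation p = 0.0397), a ratio of means of 1.70. It was the member called in this comparison, against 2.06% of all genes, and the estimate stayed between 0.59 and 0.87 with each mouse left out. Se_HD also exceeded Se_LD, by 0.46 ± 0.19 (p = 0.0215, adjusted p = 0.947), whereas the exact permutation test gave p = 0.127 and the call was lost without any of 5 single mice.

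Without selenium Cp was already more variable. Ctr mice had 118, 209, 212, 153 and 130 counts and HD mice 120, 300, 106, 227 and 173, and the groups overlapped. The difference was 0.10 ± 0.24 (95% interval -0.40 to 0.60), and its sign turned without HD replicate 2 (-0.09) or Ctr replicate 1 (-0.0039). Se_Ctr was lower than Ctr by 0.60 ± 0.23 (p = 0.0137, adjusted p = 1.00; exact permutation p = 0.0159), with 4 of the 5 Se_Ctr mice below all Ctr mice, and the call was lost without Se_Ctr replicate 1 (-0.51) or without the trend. It was the member called there, against 1.3% of all genes. The Se_HD against Se_Ctr and Se_Ctr against Ctr comparisons share the Se_Ctr mice, in which Cp was lowest. Se_HD and HD had nearly the same mean, 181 ± 59.2 and 185 ± 79.8. HD over both diets exceeded control by 0.40 ± 0.16 (adjusted p = 0.413), a call that was lost without HD replicate 2 (0.30), Se_Ctr replicate 1 (0.36) or the trend. The effect of HD differed between diets by 0.60 ± 0.33 (95% interval -0.06 to 1.26), which did not pass. No member was called in this test by limma, edgeR or DESeq2, against 2.38% of all genes, and none passed by the contrast alone, against 4.77%. Choroid plexus markers had a higher median sum in Se_HD (29139) than in Se_Ctr (14429), and none of the 10 was called in that comparison. Of 10 endothelial markers, Flt1 and Slc2a1 were higher in Se_HD than in Se_Ctr (list median 0.04, sums 2614 to 3384 and 2670 to 2779), and in Se_Ctr against Ctr 1 of 8 astrocyte and 1 of 6 erythrocyte markers were lower (Gjb6 and Alas2). Choroid plexus sums of Se_HD replicates 1 to 5 were 17708, 35528, 34684, 29139 and 9601, beside Cp of 194, 132, 107, 239 and 231. In Se_Ctr against Ctr the choroid plexus list had a median of 0.93, with none of 10 called. The part of these cell types in the results for Cp was not tested.

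**Figure D3:**
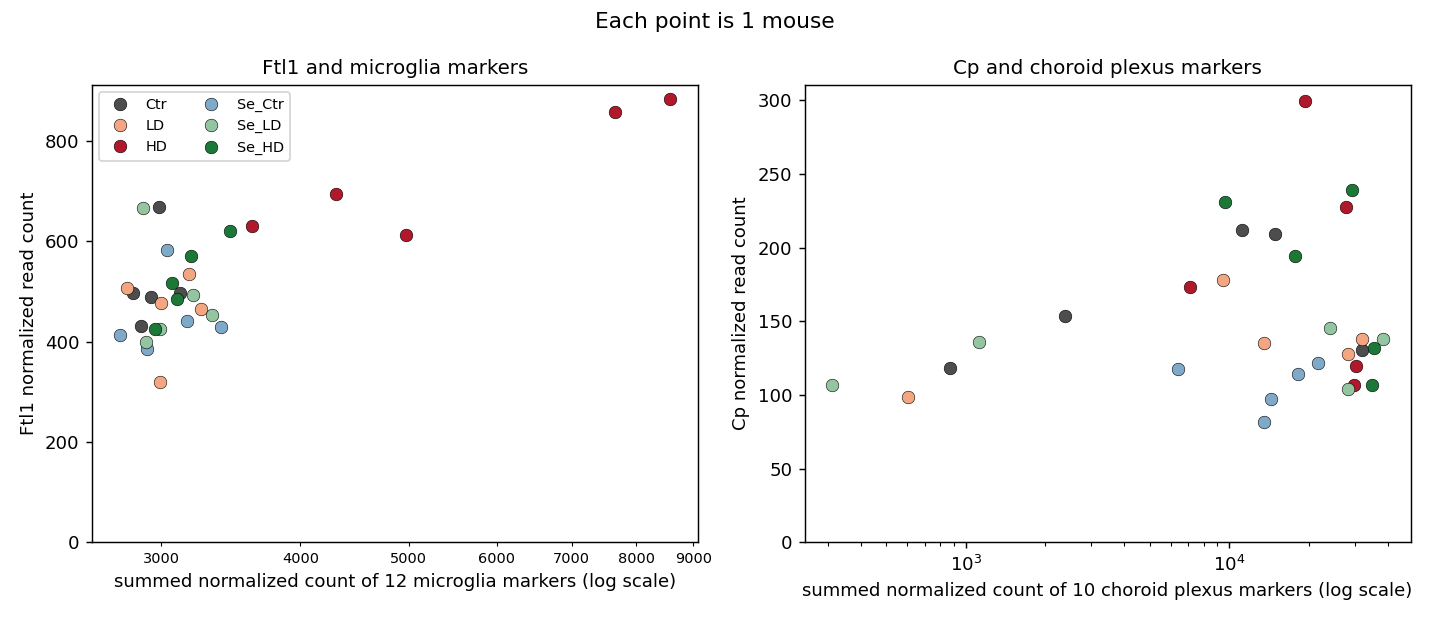
Left, Ftl1 against the summed normalised counts of 12 microglia markers, and right, Cp against the sum of 10 choroid plexus markers, with 1 point per mouse and log horizontal axes. All 5 HD mice lie to the right of every other mouse on the left. On the right, Se_HD mice lie between 9601 and 35528 on the horizontal axis and Se_Ctr mice between 6390 and 21642.

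Aco1 (chr4:40090114-40146042, + strand) is the cytosolic aconitase that turns into an iron regulatory protein when it loses its iron-sulfur cluster. Se_LD mice had 289, 289, 273, 291 and 251.8 counts, Se_Ctr mice 260, 247, 217, 251.8 and 246 and Se_HD mice 244, 251, 221, 239 and 236. All Se_LD mice were above all Se_HD mice, and 4 of 5 were above all Se_Ctr mice. Se_LD exceeded Se_Ctr by 0.19 ± 0.07 (p = 0.0177, adjusted p = 1.00; exact permutation p = 0.0238), and Se_HD was below Se_LD by 0.23 ± 0.07 (p = 0.00589, adjusted p = 0.899; exact permutation p = 0.00794). The first call was lost without Se_Ctr replicate 3 (0.15), and both were lost when all 30 libraries shared the fit. In the other diet Aco1 was not called, with 234 ± 19.3 in Ctr, 245 ± 21.3 in LD and 255.5 ± 35.5 in HD. Aco1 was the member called in Se_LD against Se_Ctr, against 1.46% of all genes. In that comparison 1 of 3 thalamus markers (Tcf7l2) and 1 of 10 endothelial markers were higher and 1 of 12 microglia markers was lower. The thalamus sums ran from 466 to 1857 in Se_LD, from 482 to 1016 in Se_Ctr and from 495 to 973 in Se_HD, and the part of neighbouring tissue in the result was not tested.

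Ireb2 (chr9:54711562-54760341, + strand), the second iron regulatory protein, is broken down when iron is plentiful. Se_HD mice had 845, 892, 857, 862 and 940 counts and Se_LD mice 767, 744, 850, 729 and 796. Of the Se_HD mice 4 lay above all Se_LD mice, and the log2 difference was 0.18 ± 0.06 (p = 0.0114, adjusted p = 0.947; exact permutation p = 0.0159). With Cp and Aco1, Ireb2 made 3 members called in Se_HD against Se_LD, against 2.47% of all genes. In the same comparison 1 of 3 thalamus markers was lower (median -0.66) and 1 of 12 microglia markers higher, and the 10 choroid plexus markers, of which none was called, had a median of 1.68. The part of these tissues in the calls was not tested. The call of Ireb2 was lost without the trend or any of 5 single mice, and with all 30 libraries in the fit none of the 3 was called. In the diet without selenium the means were 847 ± 131 in Ctr, 810 ± 132 in LD and 792 ± 104 in HD, and the groups overlapped. No member was called in Se_LD against LD by limma, edgeR or DESeq2, against 0.73% of all genes. By the contrast alone Aco1 passed there (0.19 ± 0.09), as did 2.86% of all genes.

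Members were also compared among mice of the same group, after removing group means, in 36 pairs of members and 54 pairs of a member with the summed level of a marker list. With permutations within groups (100000 resamples), 12 of the 90 relations had an unadjusted p under 0.05, and none had an adjusted p under 0.05. The relation with the lowest p was that of Slc40a1 with endothelial markers over 30 mice (Pearson r = 0.71, permutation p = 0.00086, adjusted p = 0.0774; Spearman rho = 0.56, permutation p = 0.00744, adjusted p = 0.295). Without the 2 mice farthest from the median it was 0.60. Ftl1 and Tfrc had r = -0.46 (permutation p = 0.0279, adjusted p = 0.265) and rho = -0.42 (permutation p = 0.0341, adjusted p = 0.390), and r = -0.38 without the 2 farthest mice. Ftl1 and the microglia markers had r = 0.40 (permutation p = 0.0344, adjusted p = 0.265) and rho = 0.50 (permutation p = 0.012, adjusted p = 0.295), and r = 0.30 without the 2 farthest mice. Trf with oligodendrocyte markers had r = 0.49 (permutation p = 0.00835, adjusted p = 0.265) and rho = 0.50 (permutation p = 0.00768, adjusted p = 0.295), and 0.39 without the 2 farthest mice. The other 8 relations with an unadjusted permutation p under 0.05 each had an adjusted p of 0.265. Fth1 had r = 0.42 with Trf (rho = 0.49, and 0.57 without the 2 farthest mice) and r = -0.51 with Ireb2 (rho = -0.51, then -0.45). Ireb2 had r = 0.47 with Cp (rho = 0.40, then 0.48), r = -0.33 with oligodendrocyte markers (rho = -0.34, then -0.39) and r = 0.44 with astrocyte markers (rho = 0.39, then 0.40). Slc11a2 had r = -0.51 with endothelial markers (rho = -0.37, then -0.27) and r = -0.42 with erythrocyte markers (rho = -0.42, then -0.38). Tfrc had r = 0.45 with oligodendrocyte markers (rho = 0.39, then 0.39). No relation passed for the ferritin chains with each other (r = 0.13, permutation p = 0.575, adjusted p = 0.796; rho = 0.09, permutation p = 0.660, adjusted p = 0.886; 0.09 without the 2 farthest mice), nor for Cp with the choroid plexus markers (r = 0.13, permutation p = 0.420, adjusted p = 0.735; rho = 0.03, permutation p = 0.886, adjusted p = 0.961; -0.03 without the 2 farthest mice).

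The genes whose pattern over the 30 libraries, group differences included, was most like that of a member, for 8 of the 9 members, were found among 9273 genes with a mean of at least 100 normalised counts. They are a description with no test, since all points share library, group and depth. Ftl1 was most like Tyrobp (Pearson r = 0.82), Grn (0.79) and Tmem176b (0.78), of which Tyrobp is one of the microglia markers. Fth1 was most like Asphd2 (0.82), Mlf2 (0.79) and ORF61 (0.79), with no gene in common with the light chain. Ireb2 was most like Etnk1 (0.88), Ccdc88a (0.88) and Avl9 (0.87). Trf was most like Gltp (0.74), Col27a1 (0.72) and Ddr1 (0.71), and Tfrc like Ddhd2 (0.75), AI593442 (0.72) and Srl (0.70). Slc40a1 was most like Secisbp2 (0.71), Sgcb (0.71) and Cpped1 (0.71), Slc11a2 like Srcap (0.70), Clasp1 (0.67) and snoU90 (0.67), and Aco1 like Dnmt1 (0.67), Apeh (0.65) and Cdk5rap3 (0.65).

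A further 64 genes of iron handling were taken from 6 lists, and 60 of them are in the table. In HD against Ctr, 4 of the 60 were higher and none lower, with a median log2 difference of -0.04 beside 0.01 for all genes. The share of all genes called was 3.36% higher and 1.73% lower. In LD against Ctr none of the 60 was called by limma, beside 1.46% of all genes, and none passed by the contrast alone, beside 3.01%. By list, 2 of 12 genes of uptake and reduction, 1 of 7 of export and hepcidin and 1 of 19 of heme handling were higher, and none of 3 other genes of ferritin turnover, of 4 that act on the iron regulatory proteins or of 15 of mitochondrial iron and iron-sulfur clusters was called in HD against Ctr.

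The gene of heme handling was Hmox1, heme oxygenase, which frees iron from heme. It had 39.8, 30.6, 49.1, 30.4 and 44.8 counts in Ctr mice and 83.4, 230, 58.5, 67.5 and 102 in HD mice. Every HD mouse was above every Ctr mouse, and the log2 difference was 1.29 ± 0.29 (p = 0.000224, adjusted p = 0.0863; exact permutation p = 0.00794). Se_HD against Se_Ctr gave 0.23 ± 0.19 (95% interval -0.16 to 0.63).

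Cybrd1, a ferrireductase, had between 28.2 and 86.8 counts in Ctr mice and between 51.1 and 215 in HD mice. HD was higher by 1.23 ± 0.31 (p = 0.000781, adjusted p = 0.139; exact permutation p = 0.0397), and 3 HD mice were above all Ctr mice. Hfe, which acts in the sensing of body iron, had between 6.76 and 35.8 counts in Ctr and between 29.6 and 56.3 in HD, with 2 HD mice above all Ctr mice (1.23 ± 0.36, p = 0.00253, adjusted p = 0.202; exact permutation p = 0.0317). The other called gene, Lcn2, falls outside the rule for named genes, with a mean of 2.45 counts, and is named because the count is small. Its exact permutation p was 0.0952, with 1 HD mouse above all Ctr mice. HD replicate 2 had the highest count of all 30 libraries for Hmox1, Cybrd1 and Lcn2, and it also had the highest sum of microglia markers. The part of microglia in these differences was not tested.

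In Se_HD against Se_Ctr, 1 of 59 tested genes was higher and 1 lower, beside 1.28% and 0.777% of all genes. Bmp6, a signal for hepcidin production, had between 75.2 and 137 counts in Se_HD and between 45.7 and 74.5 in Se_Ctr, with no overlap (0.64 ± 0.24, p = 0.0137, adjusted p = 1.00; exact permutation p = 0.00794). Abcb8, a transporter of the mitochondrial inner membrane, had between 247 and 297 in Se_HD and between 304 and 327 in Se_Ctr, also with no overlap (-0.19 ± 0.09, p = 0.0389, adjusted p = 1.00; exact permutation p = 0.00794). The share of all genes with no overlap in this comparison was not computed. Choroid plexus markers had median sums of 29139 in Se_HD and 14429 in Se_Ctr, and none of the 10 was called there. In HD against Ctr their median log2 difference was 1.42, and that of Bmp6 was -0.04. The part of the choroid plexus in the Bmp6 result was not tested. With HD averaged over both diets, Hmox1 (0.76 ± 0.18), Cybrd1 (0.71 ± 0.19) and Hfe (0.85 ± 0.26) were called, all higher, beside 2.77% of all genes higher and 1.45% lower.

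**Figure D4:**
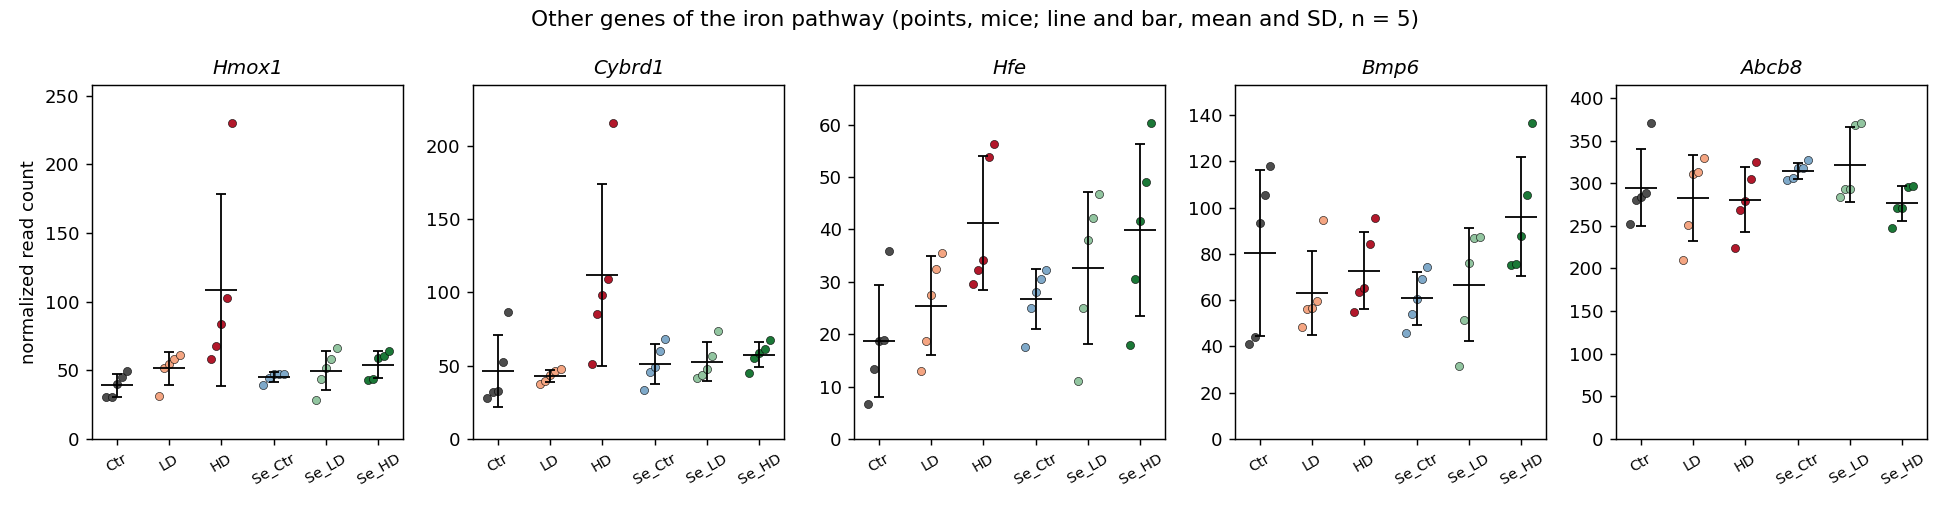
Normalised read counts of the 5 other iron genes named by rule, in the 6 groups, with axes from 0. Points are mice, and lines and bars are the mean and SD of 5 mice. For Hmox1 all HD mice lie above all Ctr mice, with replicate 2 at 230, and for Bmp6 all Se_HD mice lie above all Se_Ctr mice.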

How the data were processed

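Libraries were made at a sequencing centre with a stranded mRNA kit and sequenced as single 75-base reads on a NextSeq. Reads were trimmed by the authors with Trim Galore 0.4.2, aligned with HISAT2 to NCBIM37, counted with featureCounts, filtered on a row sum of 10 reads and divided by DESeq2 size factors. Whether strand was used in counting is not given in the sources used here. The deposited signal is this normalised read count, and all values were whole reads divided by a size factor (tolerance 0.05). Names and positions came from the annotation of the same build, which named 21326 of 21412 identifiers.

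Log2(normalised count + 1) was fitted with limma 3.58.1 (trend) in R 4.3.3, for genes with a sum of at least 10. Comparisons within a diet used its 15 libraries (20031 genes without and 19679 with selenium), and those across diets all 30 (21383 genes). As in the study's design, a gene was called at an unadjusted p under 0.05 in both the F test and the contrast. P-values were adjusted across all tested genes by the Benjamini-Hochberg method. Exact tests were two-sided and unadjusted, and were run for the members and the named genes only. The share of all genes whose 2 groups do not overlap was not computed. Log2 differences understate changes of low genes. The limma fit of HD against Ctr was also run on simulated data, with an outcome that is not reported here. The fits were repeated with quantile normalisation, with the set of 6 neighbouring library numbers (1 library per group) as a covariate, with size factors recomputed within the fit, with a pseudocount of 0.1 or 10, without the filter or with one on a mean of 10, without the trend, with the contrast alone, with all 30 libraries or 2 groups alone, on the recovered reads with DESeq2 1.42.0 and edgeR 4.0.16, and without each mouse in turn. Each library is 1 mouse, and replicate numbers follow accession order and pair nothing. The genes most like Cp are not reported here. The members and lists were chosen with earlier results of these data known. Of the other iron genes, those called in HD against Ctr, in Se_HD against Se_Ctr or in HD over both diets with a mean of at least 10 counts are named.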

Additional observations from a re-analysis of the deposited data

Results flagged for a closer look

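Single mice stood apart in 8 of the 90 groups of 5 values examined (9 members and 6 other iron genes in 6 groups), where chance flags about 1 group in 20. In each, the gap from the highest mouse to the next, as a share of the range of the group, was above the critical value of 0.71. For Ftl1 these were Ctr replicate 2 (0.722; 669 counts) and Se_Ctr replicate 3 (0.716; 583 counts), and for Tfrc Se_Ctr replicate 4 (0.763; 1685 counts). For Lcn2 they were Ctr replicate 1 (0.882), HD replicate 2 (0.738) and Se_LD replicate 2 (1.00), at counts of 10.9, 26.1 and 0.836. For Bmp6 it was LD replicate 3 (0.760) and for Hmox1 HD replicate 2 (0.744).

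Of the 60 other iron genes tested, 3 were called in the test of whether the effect of HD differed between diets, and none had an adjusted p under 0.05. All 3 were also called in HD against Ctr, and the HD and Ctr mice enter both tests. On the log2 scale, the selenium groups minus the others, the difference was -1.03 ± 0.38 for Cybrd1 (SE; limma adjusted p = 0.910), -1.06 ± 0.36 for Hmox1 (adjusted p = 0.787) and -2.21 ± 0.80 for Lcn2 (adjusted p = 0.856), which had at most 1.90 counts in any selenium library. Each passed at an unadjusted p under 0.05 in the F test over 6 groups and in the contrast, as did 2.38% of all genes. In the same test 11 of 12 microglia markers were lower (median -0.98), and their part in these differences was not tested.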

How the results depend on the processing

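Of 159 values of the 13 called member differences under settings other than leaving out a mouse, 152 kept direction and call, 7 lost the call and none reversed. The losses were those of Aco1 in 2 comparisons and of Cp and Ireb2 in Se_HD against Se_LD with all 30 libraries, and without the trend those of Ireb2 in Se_HD against Se_LD and of Cp in Se_Ctr against Ctr and in HD over both diets. Ftl1 in HD against Ctr kept its call under all of these, between 0.50 and 0.52, with adjusted p-values from 0.0655 to 0.376. In HD against LD its adjusted p lay between 0.00354 (DESeq2) and 0.274.

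Counts of called members changed as follows. In LD against Ctr 1 member (Tfrc) was called with the library set as covariate, with all 30 libraries, with edgeR and with DESeq2. Without the trend, 0 members were called in Se_Ctr against Ctr, 1 in HD over both diets, 2 in Se_HD against Se_LD and 2 in the F test over 6 groups. With the library set as covariate, 3 were called in HD over both diets. With the contrast alone, 1 was called in Se_LD against LD and 2 for selenium over all doses. With all 30 libraries, 0 were called in Se_LD against Se_Ctr and 0 in Se_HD against Se_LD. Without group centring, 2 relations passed. They were Ftl1 with microglia markers (r = 0.72, adjusted permutation p = 0.0027) and Ftl1 with Tfrc (r = -0.65, adjusted permutation p = 0.0036). That test shuffles all 30 mice, so differences between groups enter it. Leaving out 1 mouse, the counts ranged from 0 to 1 in LD against Ctr (LD replicate 3), Se_Ctr against Ctr (Se_Ctr replicate 1), Se_LD against LD (LD replicate 3) and for the effect of HD between diets (Cp, without Ctr replicate 1, HD replicates 2 or 4, or Se_HD replicates 2 or 3). They ranged from 1 to 2 in HD against LD (LD replicate 5), Se_HD against Se_Ctr (Se_HD replicate 2) and selenium over all doses (HD replicates 1 or 3), from 0 to 2 in Se_LD against Se_Ctr (0 without Se_Ctr replicate 3, 2 without Se_Ctr replicate 1 or Se_LD replicate 3), and from 1 to 3 in Se_HD against Se_LD (1 without Se_LD replicate 2 or Se_HD replicate 5, and 2 without 6 other mice). In HD over both diets they ranged from 1 (HD replicate 2, Se_Ctr replicate 1) to 3 (Ctr replicate 1, HD replicates 1 or 4, Se_Ctr replicate 5, Se_HD replicate 2), and in the F test over 6 groups from 2 (HD replicate 2, Se_Ctr replicate 1) to 4 (HD replicate 3).

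Differences near 0 changed sign in some settings. Fth1 in Se_HD against Se_Ctr was 0.0168 under quantile normalisation. Leaving out 1 mouse gave ranges of -0.0747 to 0.18 for Slc40a1 and -0.0949 to 0.28 for Cp in HD against Ctr, and in LD against Ctr of -0.19 to 0.00078 for Slc40a1, -0.0276 to 0.0496 for Slc11a2 and -0.15 to 0.0027 for Ireb2. In Se_HD against Se_Ctr the range was -0.0621 to 0.0224 for Fth1 and -0.14 to 0.0624 for Trf. In Se_LD against Se_Ctr it was -0.0698 to 0.0915 for Fth1, -0.0159 to 0.20 for Ftl1, -0.0539 to 0.14 for Trf, -0.10 to 0.0196 for Slc40a1 and -0.0339 to 0.0464 for Slc11a2. The causes were not tested. The labels carry no replicate numbers, so mice were not paired by replicate: the numbers used here follow accession order. The set of 6 neighbouring library numbers, used as a covariate, is not stated to be a batch or a pairing. Trf had the fewest reads of the members, with as few as 21 in a library. Its level is uncertain, since 63.7% of its exonic bases are shared with a second gene.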
